A study of Mus musculus with 17 samples.

Results

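The 9 genes studied here are known from the olfactory bulb: Cdhr1, Tbx21, Eomes, Doc2g, Nmb, Th, Sp8, Shisa3 and Lhx5. They were followed across forebrain RNA-seq libraries of newborn mice that lacked osteocalcin or carried 1 copy of it. They are 9 of the 55359 genes in the deposited table and were found by matching its Ensembl identifiers to gene symbols. They were selected on their measured forebrain levels, so their differences between genotypes are given here as a description, without a test. The libraries came from 9 male pups on postnatal day 1 of the OcnGK strain, an osteocalcin mutant made by homologous recombination. The 3 WT pups had WT mothers, the 3 Ocn+/- pups had Ocn-/- mothers, and the 3 Ocn-/- pups had Ocn-/- mothers. Against WT, the genotype of the pup, that of its mother and the litter therefore changed together and cannot be told apart, and the same WT libraries served both comparisons with WT. The labels call the tissue hippocampus, whereas the study's methods call it forebrain, and it is called forebrain here.

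The olfactory bulb is the front end of the forebrain, where axons of olfactory sensory neurons end in glomeruli. Its projection neurons, the mitral and tufted cells, carry the signal on to the olfactory cortex, and its interneurons, the granule and periglomerular cells, shape that signal by inhibition. Many of the interneurons reach the bulb after birth as neuroblasts that migrate from the subventricular zone. In a dissected forebrain, the bulb can be included whole, in part or not at all, and in bulk RNA fewer cells of a type and less RNA per cell cannot be told apart.

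The forebrain libraries held 6518151 to 14621584 expected counts, the lowest in WT 3, and 16076 genes were tested. WT 3 stood apart from the rest, with an average root mean square log2 distance to the other libraries of 0.645 against 0.484 to 0.529 for the other 8. Bglap and Bglap2, the genes of osteocalcin, gave 0 to 5 and 0 counts in every forebrain, so the knockout could not be checked in this tissue. Of the genes that mark the forebrain, Lhx2, a LIM homeobox factor, was measured at 68.5 to 103 CPM (counts scaled to the size of the library), Emx2, a homeobox factor of the dorsal telencephalon, at 11.2 to 17.4 CPM, and Prox1, a marker of dentate granule cells, at 31.9 to 44.7 CPM. Hoxb3, a hindbrain gene, had 0 counts in every forebrain, and 1 of 9 hindbrain genes passed the filter. That gene, Slc6a4, which encodes the serotonin transporter, was measured at 0.356 to 1.61 CPM in WT, 1.83 to 2.28 CPM in Ocn+/- and 1.28 to 2.00 CPM in Ocn-/-, so that every Ocn+/- library lay above every WT library (adjusted p = 0.234). The summed level of the hindbrain list was 0.534 to 2.65 CPM in WT, 2.87 to 2.98 CPM in Ocn+/- and 2.32 to 2.48 CPM in Ocn-/-, and its part in the levels of the bulb genes was not tested.

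All 9 genes passed the filter on low counts. Levels can be compared between genes only per length of transcript, as RPKM over the union of exons. On that scale Cdhr1 had the highest median over the 9 forebrains, 10.5, followed by Eomes at 4.58, Sp8 at 3.95, Nmb at 2.17, Doc2g at 1.18 and Lhx5 at 0.849. Th, Shisa3 and Tbx21 followed at medians of 0.486, 0.448 and 0.423 RPKM, and their ranges over the libraries overlapped. The genes also differed in how far they varied between libraries: the highest CPM was 19.2 times the lowest for Cdhr1, 6.15 times for Th and 4.89 times for Nmb, but 2.03 times for Eomes, 2.02 times for Sp8 and 1.62 times for Doc2g.

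The promoters of the 3 genes with the largest fold differences between Ocn+/- and WT are shown to set side by side what lies upstream of them. Each is the 250 bases before the start of the canonical transcript, read 5′ to 3′ on the gene's own strand from GRCm39. The capitals mark the GC box GGGCGG, the motif bound by the Sp family of zinc-finger factors, to which Sp8 belongs. Cdhr1 lies on the minus strand at chr14:36820485-36820734, Tbx21 on the minus strand at chr11:97006159-97006408 and Nmb on the minus strand at chr7:80554830-80555079.
Cdhr1: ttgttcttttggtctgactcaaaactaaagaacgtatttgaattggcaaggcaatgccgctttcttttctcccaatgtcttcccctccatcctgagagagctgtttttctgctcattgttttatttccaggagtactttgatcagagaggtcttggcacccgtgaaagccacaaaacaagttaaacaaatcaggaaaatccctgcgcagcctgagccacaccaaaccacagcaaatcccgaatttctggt
Tbx21: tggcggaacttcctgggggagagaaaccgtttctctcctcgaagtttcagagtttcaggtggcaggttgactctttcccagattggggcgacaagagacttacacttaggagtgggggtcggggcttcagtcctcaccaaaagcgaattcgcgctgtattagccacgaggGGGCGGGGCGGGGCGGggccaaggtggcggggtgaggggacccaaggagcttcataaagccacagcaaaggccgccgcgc
Nmb: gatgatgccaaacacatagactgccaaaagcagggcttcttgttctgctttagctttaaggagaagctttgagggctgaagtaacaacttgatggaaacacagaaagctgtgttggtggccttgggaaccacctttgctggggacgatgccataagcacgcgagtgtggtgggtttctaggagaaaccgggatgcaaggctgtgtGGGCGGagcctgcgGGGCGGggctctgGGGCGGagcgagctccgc
Tbx21 held 3 GC boxes in an overlapping row, Nmb held 3 separate ones, and Cdhr1 held none. Searched on both strands, the GC box was found in the promoters of 5 of the 9 genes (Tbx21, Nmb, Th, Shisa3 and Lhx5) and in 36.3% of 21770 promoters of the same length. The T-box core GGTGTGA (3.23% of all promoters), the homeodomain core TAATTA (5.18%), the EBF site (0.882%) and the TATA box TATAAA (11.9%) were found in 0 of the 9. These are matches of letters in a short window and describe no binding.

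Among the genes of mitral and tufted cells, Cdhr1 (ENSMUSG00000021803, chromosome 14, 36799807 to 36820484, minus strand) showed the widest contrast. It encodes a cadherin-related protein of the cell surface. Its level was 10.9, 12.6 and 4.80 CPM in WT 1, 2 and 3, then 82.5, 71.0 and 92.1 CPM in Ocn+/- 1, 2 and 3, and 8.15, 51.8 and 54.0 CPM in Ocn-/- 1, 2 and 3. Every Ocn+/- library thus lay above every WT library, whereas Ocn-/- 1 lay among the WT libraries and Ocn-/- 2 and 3 lay between WT and Ocn+/-. Ocn-/- 2 and 3 exceeded Ocn-/- 1 by 6.36 and 6.63 times. Its fitted log2 fold change against WT came to 3.05 ± 0.73 (SE, n = 3 against 3) in Ocn+/- and 1.95 ± 0.74 in Ocn-/-. Without Ocn-/- 1, the Ocn+/- value stayed at 3.05 while its SE narrowed to 0.22, since all genotypes shared 1 estimate of the spread, and the Ocn-/- value was 2.42 ± 0.24.

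Tbx21 (chromosome 11, 96988897 to 97006158, minus strand) encodes T-bet, a T-box transcription factor that marks mitral and tufted cells in brain and T helper and NK cells in blood. It was scarce, and its expected counts were 7, 3 and 1 in WT, 44, 18 and 33 in Ocn+/-, and 0, 20 and 14 in Ocn-/-. The order of libraries resembled that of Cdhr1, with Ocn-/- 1 the lowest of all 9. Ocn+/- 1, at 2.98 CPM, was at least 12.4-fold higher than Ocn-/- 1, taking 3 counts as the limit that a count of 0 allows. Fitted against WT, Tbx21 differed by 2.47 ± 0.74 (log2) in Ocn+/- and by 1.05 ± 0.82 in Ocn-/-. Of 9 genes of T and NK cells, among them Cd3e, Ncr1 and Nkg7, 4 had 0 counts in every forebrain, none passed the filter, and their summed level ranged from 0.310 to 1.14 CPM.

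Eomes (chromosome 9, 118307280 to 118315200, plus strand), which encodes the T-box factor Tbr2 of mitral and tufted cells and also of intermediate progenitors of the cortex and hippocampus, was more evenly spread. It was measured at 11.7, 13.0 and 21.9 CPM in WT, 23.4, 19.8 and 23.0 CPM in Ocn+/-, and 11.5, 17.9 and 19.0 CPM in Ocn-/-. WT 3 lay within the Ocn+/- range, so these groups overlapped, and Ocn-/- 1 was again the lowest library. On the log2 scale Eomes differed from WT by 0.56 ± 0.22 in Ocn+/- and 0.11 ± 0.23 in Ocn-/-. Of 10 other genes of intermediate progenitors 9 were tested, and 3 fell in Ocn+/- and 1 in Ocn-/-, where 2.68% and 3.05% of all tested genes were called lower. Their summed level was 145 to 193 CPM in WT, 113 to 126 CPM in Ocn+/- and 116 to 130 CPM in Ocn-/-, and the part of these cells in the level of Eomes was not tested. Insm1, a zinc-finger factor of dividing progenitors, fell in both (by 0.83 and 0.86 on the log2 scale, adjusted p = 0.0256 and 0.0193). Sstr2, a somatostatin receptor, and Gadd45g, a growth arrest gene, fell in Ocn+/- by 0.51 and 1.01 (adjusted p = 0.0273 and 0.0223).

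Doc2g (chromosome 19, 4052131 to 4057200, plus strand), a C2-domain gene of mitral and tufted cells, did not follow the others. Its level was 5.27, 6.05 and 5.23 CPM in WT, 5.09, 4.23 and 6.01 CPM in Ocn+/-, and 3.73, 4.05 and 5.76 CPM in Ocn-/-. The 3 genotypes overlapped throughout, with log2 fold changes of -0.11 ± 0.23 and -0.29 ± 0.24 against WT. Doc2g overlaps the protein-coding gene Gm49405 on the same strand over 3686 bases and had non-whole expected counts in all 9 forebrains, so reads may have been divided between the genes and its level is uncertain.

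Nmb (chromosome 7, 80551975 to 80554829, minus strand) encodes neuromedin B, a peptide of the bombesin family made by tufted cells. Its level was 0.915, 0.691 and 0.712 CPM in WT, 3.38, 2.09 and 3.02 CPM in Ocn+/-, and 1.36, 2.34 and 1.73 CPM in Ocn-/-. It was the 1 gene of the 9 in which all Ocn-/- libraries lay above all WT libraries, and Ocn-/- 1 was nonetheless the lowest of its genotype. The fitted log2 difference from WT was 1.83 ± 0.39 for Ocn+/- and 1.19 ± 0.41 for Ocn-/-, from 4 to 50 counts a library. The other members of the family, the receptor Nmbr, the peptide Grp and its receptor Grpr, gave log2 fold changes of 0.61, 0.27 and 0.51 in Ocn+/- and of 0.92, -0.0011 and 0.48 in Ocn-/-. By edgeR 0 of the 3 passed the test in any comparison, and 0 had an unadjusted p under 0.05. Over all 16076 tested genes, 3267 in Ocn+/- and 3489 in Ocn-/- against WT and 515 between the mutants had an unadjusted p under 0.05. Nmb overlaps the protein-coding gene Sec11a on the same strand over 193 bases and the antisense lncRNA Gm51451 over 2855 bases. As the strandedness of counting was not given in the sources used here, reads of such antisense partners cannot be told apart.

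Shisa3 (chromosome 5, 67765217 to 67780895, plus strand), an antagonist of Wnt and FGF signalling, was measured at 1.14, 1.04 and 2.13 CPM in WT, 2.84, 2.71 and 2.96 CPM in Ocn+/-, and 1.36, 1.61 and 3.09 CPM in Ocn-/-. The Ocn+/- libraries lay above all WT libraries, and the Ocn-/- libraries were spread over both ranges, with Ocn-/- 3 the highest of all 9. Against WT the fitted log2 difference was 1.05 ± 0.39 (Ocn+/-) and 0.56 ± 0.40 (Ocn-/-). Shisa3 overlaps the antisense gene Atp8a1 over 5415 bases, with the same uncertainty.

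The genes of bulb interneurons, Th and Sp8, differed from each other. Th (chromosome 7, 142443466 to 142484865, minus strand) encodes tyrosine hydroxylase, the rate-limiting enzyme of dopamine synthesis, and marks the dopaminergic periglomerular cells. It was measured at 1.83, 1.61 and 3.20 CPM in WT, 5.68, 4.34 and 6.38 CPM in Ocn+/-, and 1.04, 3.62 and 3.46 CPM in Ocn-/-. Here too the Ocn+/- libraries lay above all others, Ocn-/- 2 and 3 lay just above WT 3, and Ocn-/- 1 was the lowest of all. Th differed from WT by 1.37 ± 0.38 on the log2 scale in Ocn+/- and by 0.37 ± 0.40 in Ocn-/-. Th is also made by dopamine neurons of the midbrain. Of the other genes of those neurons, the transporter Slc6a3 ranged from 0.239 to 1.16 CPM, Pitx3 from 0 to 0.226 CPM and En1 from 0 to 0.203 CPM. In WT, Ocn+/- and Ocn-/-, Lmx1b averaged 0.0384, 0.615 and 0.150 CPM and Foxa1 0, 0.348 and 0 CPM. Foxa2 averaged 0, 0.0451 and 0.193 CPM and En2 0.0768, 0.145 and 0.0251 CPM. Every Ocn+/- library lay above every WT library for Lmx1b, as did every Ocn-/- library for Foxa2. The list of those neurons held 9 genes, and 2 passed the filter. Of these, the aldehyde dehydrogenase Aldh1a1 averaged 2.40 CPM in WT, 4.39 CPM in Ocn+/- and 4.03 CPM in Ocn-/-, and every mutant library lay above every WT library (adjusted p = 0.116 and 0.173). The other that passed, Lmx1a, a LIM homeobox factor, averaged 1.34 CPM in WT, 1.297 CPM in Ocn+/- and 0.631 CPM in Ocn-/- (adjusted p = 0.984 and 0.390). The summed level of the list was 3.80 to 4.98 CPM in WT, 5.24 to 10.96 CPM in Ocn+/- and 4.31 to 7.0 CPM in Ocn-/-, and its part in the level of Th was not tested. Th also overlaps the antisense lncRNA Gm73894 over 5324 bases. Of 7 tested genes of dopamine synthesis and transport other than Th, 0 passed the test in any comparison (edgeR). In Ocn+/- against WT 1 of them had an unadjusted p under 0.05, as did 3267 of all 16076 genes. Among the 7, Ddc, the next enzyme after Th, had log2 fold changes of 1.08 ± 0.48 and 0.65 ± 0.49 (adjusted p = 0.212 and 0.466).

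Sp8 (chromosome 12, 118810064 to 118816311, plus strand), a zinc-finger factor of periglomerular and granule cell precursors, was measured at 12.7, 13.2 and 22.8 CPM in WT, 25.7, 18.5 and 20.5 CPM in Ocn+/-, and 17.7, 22.9 and 21.8 CPM in Ocn-/-. WT 3 lay among the mutant libraries and WT 1 and 2 below them, so the groups overlapped through WT 3. Fitted log2 differences from WT were 0.46 ± 0.20 for Ocn+/- and 0.40 ± 0.20 for Ocn-/-. Lhx5 (chromosome 5, 120569764 to 120579292, plus strand), a LIM homeobox factor of the developing forebrain, was measured at 2.29, 1.61 and 3.20 CPM in WT, 2.84, 2.71 and 2.55 CPM in Ocn+/-, and 1.68, 1.47 and 1.35 CPM in Ocn-/-. It was the 1 gene of the 9 in which Ocn-/- 1 was the highest of its genotype, with log2 fold changes of 0.23 ± 0.32 in Ocn+/- and -0.62 ± 0.34 in Ocn-/-.

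**Figure D1:**
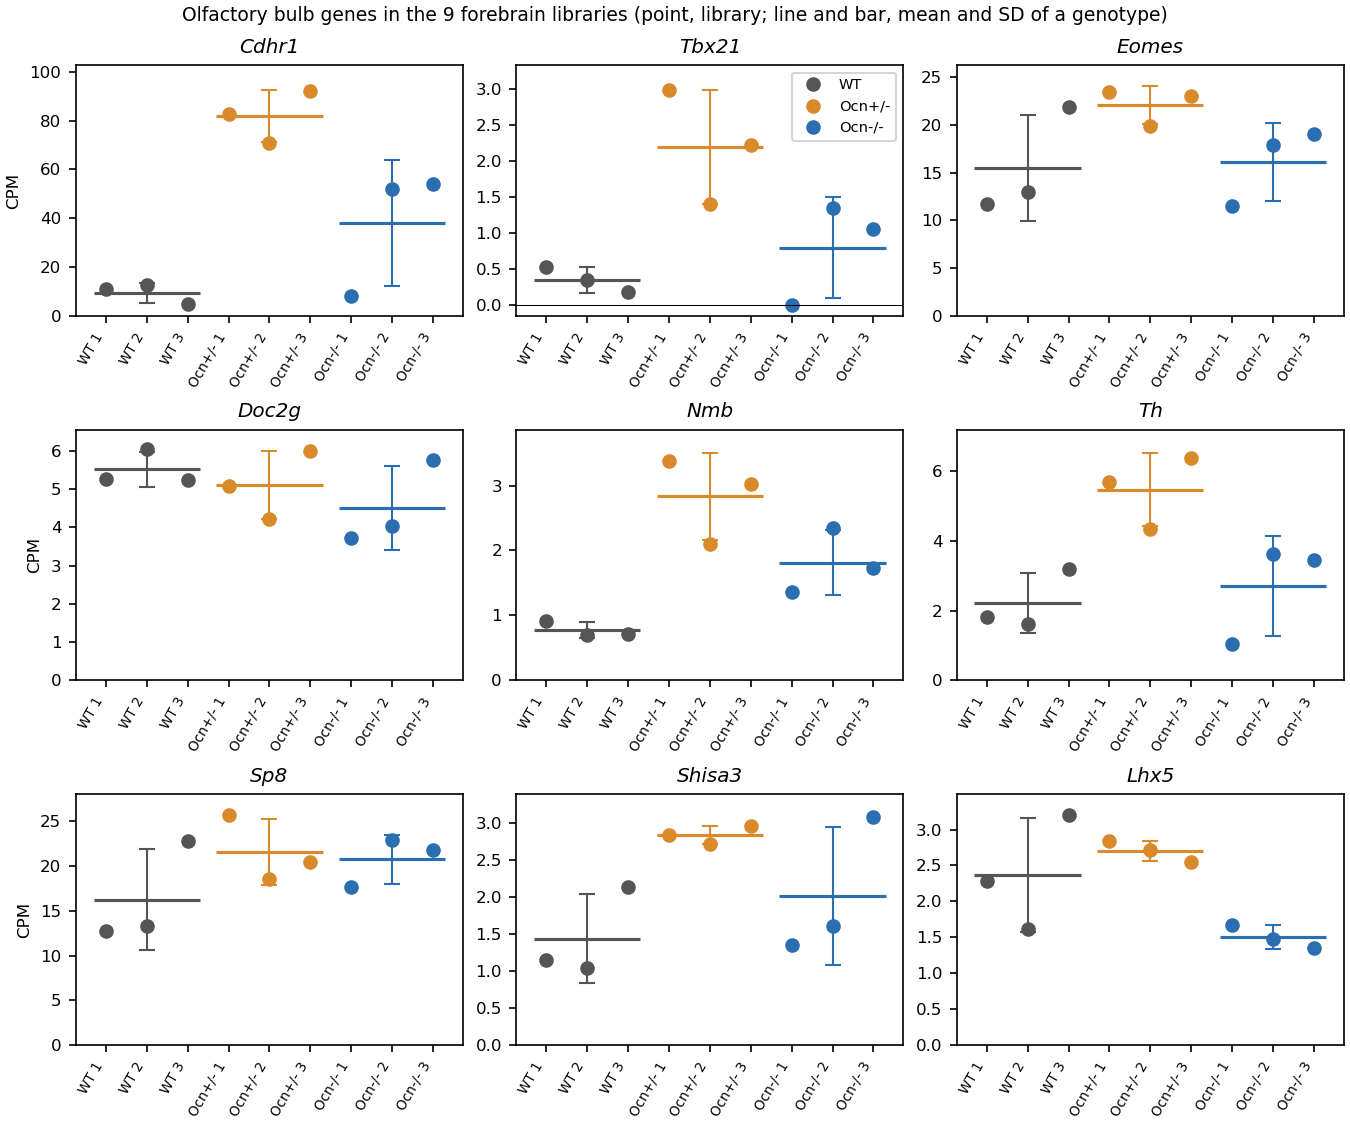
Level of each of the 9 olfactory bulb genes in CPM (y axis, each panel with its own scale from 0) in the 9 forebrain libraries (x axis). Points are libraries, horizontal lines genotype means and bars the SD over 3 libraries; Cdhr1 runs from 4.80 CPM in WT 3 to 92.1 CPM in Ocn+/- 3, with Ocn-/- 1 at 8.15 CPM beside the WT libraries.

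Counted over the 9 genes, all 3 Ocn+/- libraries lay above all 3 WT libraries in 5 (Cdhr1, Tbx21, Nmb, Th and Shisa3), which is the case for 12.9% of all tested genes. All 3 Ocn-/- libraries did so in 1 gene, Nmb, against 12.9% of all tested genes. Taken singly, Ocn-/- 2 lay above every WT library in 5 of the 9 genes (31.5% of all tested genes) and Ocn-/- 3 in 5 (31.6%). Ocn-/- 1 lay below the highest WT library in 8 of 9 (69.2%) and below both other Ocn-/- libraries in 8 of 9 (32.4%). Since the genes were chosen on these libraries, nothing is read from the comparison with all genes.

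Against WT, the 9 genes had a median log2 difference of 1.05 in Ocn+/- and 0.40 in Ocn-/-, beside 0.01 in both for all genes tested. The Ocn-/- median rested on single libraries: it was 0.17 without Ocn-/- 3 and 0.24 without WT 1, and 0.68 without WT 3 and 0.75 without Ocn-/- 1. Between the mutants, Ocn-/- was below Ocn+/- in 9 of 9 genes with a median of -0.64, beside 0.003 for all genes tested. As the 9 genes were chosen on these libraries, nothing is read from that count. Leaving out Ocn-/- 1 brought the mutants closer for most of the genes: the difference went from -1.10 ± 0.62 to -0.63 ± 0.21 for Cdhr1, from -1.42 ± 0.62 to -0.87 ± 0.46 for Tbx21 and from -0.64 ± 0.33 to -0.47 ± 0.36 for Nmb, while Lhx5 went from -0.84 ± 0.32 to -0.93 ± 0.37. Sp8 went from -0.05 to 0.05, and to 0.09 without Ocn+/- 1.

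Single libraries moved several of the values against WT. In Ocn-/-, Tbx21 was 0.45 without Ocn-/- 2 and 1.60 without Ocn-/- 1, and Th was 0.10 and 0.75 without the same libraries. Shisa3 in Ocn-/- was 0.13 without Ocn-/- 3 and 0.88 without WT 3, and Eomes ranged from -0.08 without WT 1 to 0.40 without WT 3, beside 0.37 and 0.85 in Ocn+/-. Sp8 was 0.29 in Ocn+/- and 0.24 in Ocn-/- without WT 1, and 0.74 and 0.68 without WT 3. Doc2g in Ocn+/- was -0.24 without Ocn+/- 3 and 0.0049 without Ocn+/- 2, and in Ocn-/- it was -0.50 without Ocn-/- 3 and -0.17 without Ocn-/- 1. Lhx5 was 0.02 in Ocn+/- without WT 2, and 0.45 in Ocn+/- and -0.39 in Ocn-/- without WT 3. In Ocn+/- the values of Cdhr1, Tbx21, Nmb, Th and Shisa3 stayed between 0.88 and 3.25 with any 1 library left out.

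**Figure D2:**
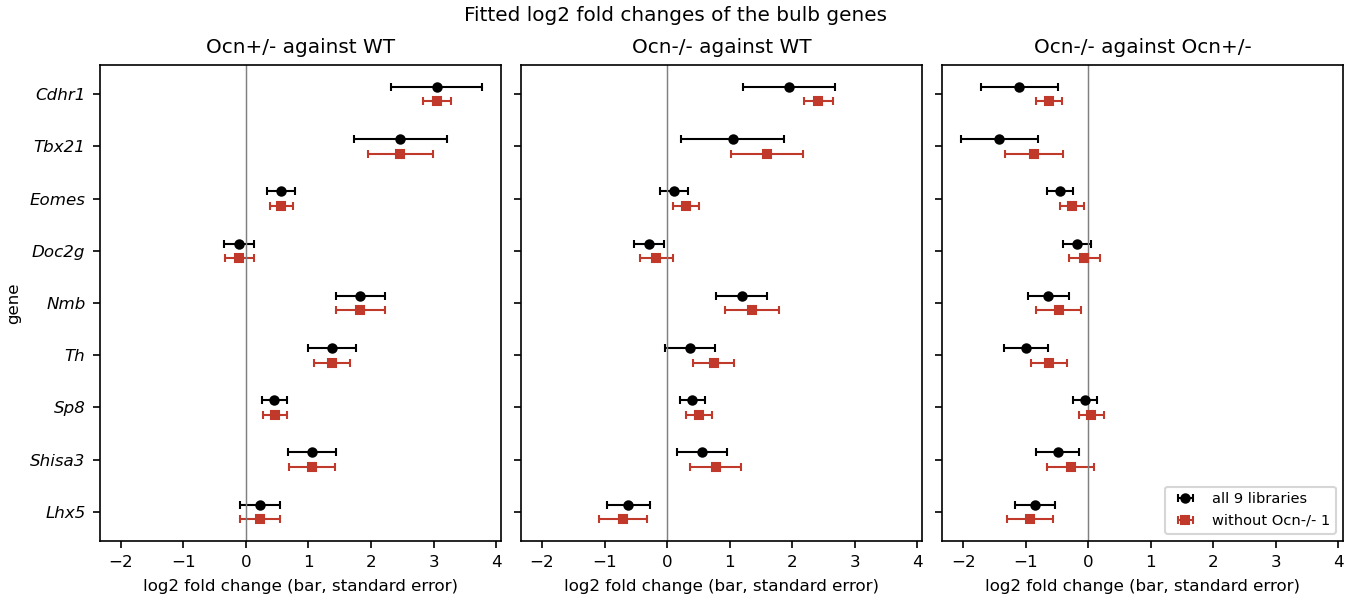
Fitted log2 fold change (x axis) of the 9 genes (y axis) in the 3 comparisons, with all 9 libraries (black circles) and without Ocn-/- 1 (red squares); bars are standard errors. For Cdhr1 in Ocn+/- the value is 3.05 in both fits and the SE narrows from 0.73 to 0.22.

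The genes did not all rise and fall together from library to library. As a description over the 9 libraries, which share depth and scaling, the log2 CPM of each gene was set against the mean of the other 8. Pearson's r was 0.974 for Th, 0.906 for Eomes, 0.861 for Shisa3, 0.827 for Tbx21, 0.750 for Cdhr1, 0.712 for Nmb and 0.639 for Sp8. It was 0.297 for Lhx5 and 0.107 for Doc2g, the 2 genes that stood outside the common pattern.

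Other genes of the bulb, not among the 9, were then examined. As their list was drawn up with earlier results of these data known, they are no independent evidence of a direction. Of 27 such genes, 26 were tested, 8 of projection neurons and 18 of interneurons. In Ocn+/- 2 rose and 0 fell by edgeR, where 1.21% of all tested genes were called higher and 2.68% lower. An unadjusted p under 0.05 was found, in either direction, for 10 of the 26 and for 3267 of all 16076 tested genes. Calb2, the calcium-binding protein calretinin of periglomerular and granule cells, was measured at 19.3, 17.5 and 18.1 CPM in WT, 38.5, 32.8 and 47.0 CPM in Ocn+/-, and 16.9, 30.5 and 30.2 CPM in Ocn-/-. It rose in Ocn+/- by a log2 fold change of 1.10 ± 0.20 (adjusted p = 0.0101), with 0.50 ± 0.20 in Ocn-/- (adjusted p = 0.176), and its Ocn-/- 1 value lay below all WT libraries. Slc17a7, the vesicular glutamate transporter VGLUT1 of mitral and tufted cells and of cortical and hippocampal neurons, rose in Ocn+/- by 0.58 ± 0.13 (adjusted p = 0.0188), from 70.1 to 101 CPM in WT to 120 to 141 CPM. In Ocn-/- 0 rose by edgeR, with 8 of either direction at an unadjusted p under 0.05, and 1 fell, Reln, which encodes reelin of mitral cells and of Cajal-Retzius cells (-0.34 ± 0.08, adjusted p = 0.0195). Over all genes 1.8% were called higher in Ocn-/- and 3.05% lower, and 3489 of 16076 had an unadjusted p under 0.05. Between the mutants edgeR called 0 of the 26, with 3 at an unadjusted p under 0.05, and DESeq2 called 0. Over all genes edgeR called 1 of 16076 (0.00622%), and 515 had an unadjusted p under 0.05.

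The other genes of projection neurons did not pass the test with all libraries, and several are shared with other regions. Tbr1, a T-box factor of mitral cells and of deep cortical neurons, was measured at 146 to 187 CPM in Ocn+/- against 202 to 256 CPM in WT (-0.39 ± 0.11, adjusted p = 0.0571). Barhl2 gave 1.60 to 2.30 CPM in WT, 2.94 to 3.52 CPM in Ocn+/- and 0.639, 1.67 and 2.79 CPM in Ocn-/- 1, 2 and 3 (adjusted p = 0.358 and 0.777). The broad interneuron genes Meis2, Dlx1, Gad1 and Gad2, which are also strong in the striatum and the ganglionic eminences, had log2 fold changes between -0.09 and -0.03 against WT. The median over the tested genes was 0.13 in Ocn+/- and -0.12 in Ocn-/- for the projection neuron list and 0.03 and -0.01 for the interneuron list, so the higher levels were found in some bulb genes and not across the lists.

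The result for Ocn-/- depended on its first library here as well. Without Ocn-/- 1, Slc17a7, Calb2 and Synpr, a synaptic vesicle protein of granule cells, were called higher in both mutants, and Tbr1 was called lower in Ocn+/-. Over all genes 1.4% were then called higher in Ocn+/- and 0.998% in Ocn-/-. The Ocn-/- values were then 0.56 ± 0.12 for Slc17a7 (adjusted p = 0.0167), 0.73 ± 0.15 for Calb2 (adjusted p = 0.0123) and 0.60 ± 0.10 for Synpr (adjusted p = 0.00384), and Reln was no longer called (adjusted p = 0.0760). Without WT 3, 0 of the 27 other bulb genes tested were called by edgeR in either mutant. Over all 16432 genes tested, 183 were then called in Ocn+/- and 189 in Ocn-/-. At an unadjusted p under 0.05 there were 7 of the 27 in Ocn+/- and 3 in Ocn-/-, beside 2393 and 2556 over all genes. Nothing particular to the bulb genes is read from these counts.

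Olfactory ensheathing glia, which wrap the olfactory axons in the outer layer of the bulb, followed the 9 genes in part. Of 4 tested genes 1 rose in Ocn+/- and 0 fell, where 1.21% of all genes were called higher. It was Frzb, a secreted Wnt antagonist, at 4.27 to 5.87 CPM in WT, 13.4 CPM ± 2.39 (SD, n = 3) in Ocn+/-, and 4.31, 9.58 and 10.8 CPM in Ocn-/- (1.44 ± 0.28 in Ocn+/-, adjusted p = 0.0126). Mybpc1, a myosin-binding protein, gave 0.534, 0.691 and 1.07 CPM in WT, 4.46, 2.94 and 5.98 CPM in Ocn+/-, and 0.319, 2.34 and 3.69 CPM in Ocn-/- (2.64 ± 0.67 in Ocn+/-, adjusted p = 0.0504). For both genes the Ocn+/- libraries lay above every WT library and Ocn-/- 1 lay within or below the WT range. Without Ocn-/- 1, Frzb and Mybpc1 were called higher in both mutants (1.4% of all genes in Ocn+/- and 0.998% in Ocn-/-). The summed level of the 5 genes of the list, most of it from the neuropeptide Npy, was 41.1 to 43.8 CPM in WT, 60.8 to 72.7 CPM in Ocn+/- and 44.5 to 67.7 CPM in Ocn-/-, where Ocn-/- 1 was the lowest of its genotype, and Foxd3 did not pass the filter. Npy and Sox10, a transcription factor of glia, were placed otherwise. Npy was measured at 29.7 to 32.0 CPM in WT, 37.9 to 41.9 CPM in Ocn+/- and 32.3, 30.5 and 43.2 CPM in Ocn-/-. Sox10 was measured at 3.74 to 7.37 CPM in WT, 8.20 to 12.8 CPM in Ocn+/- and 7.51, 7.43 and 9.26 CPM in Ocn-/-. In both genes Ocn-/- 1 lay above every WT library. Of 7 genes of olfactory sensory neurons, whose axons reach the bulb, 2 passed the filter and 0 were called by edgeR or DESeq2. By edgeR, 1 had an unadjusted p under 0.05 in Ocn-/- against WT, as did 3489 of all 16076 genes. Omp, the defining marker of these neurons, was at 0 to 0.712 CPM in WT, 0.470 to 0.676 CPM in Ocn+/- and 0.0670 to 0.376 CPM in Ocn-/-. Gng13, a G protein subunit, had 0 to 1 counts in WT and 3.94 to 11 in the mutants, so that every mutant library lay above every WT library. The summed level of the list, most of it from the G protein subunit Gnal, which other forebrain neurons also make, was 347 to 397 CPM in WT, 388 to 437 CPM in Ocn+/- and 413 to 455 CPM in Ocn-/-, with Ocn-/- 1 also above WT. The part of these neurons in the levels of the 9 genes was not tested.

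**Figure D3:**
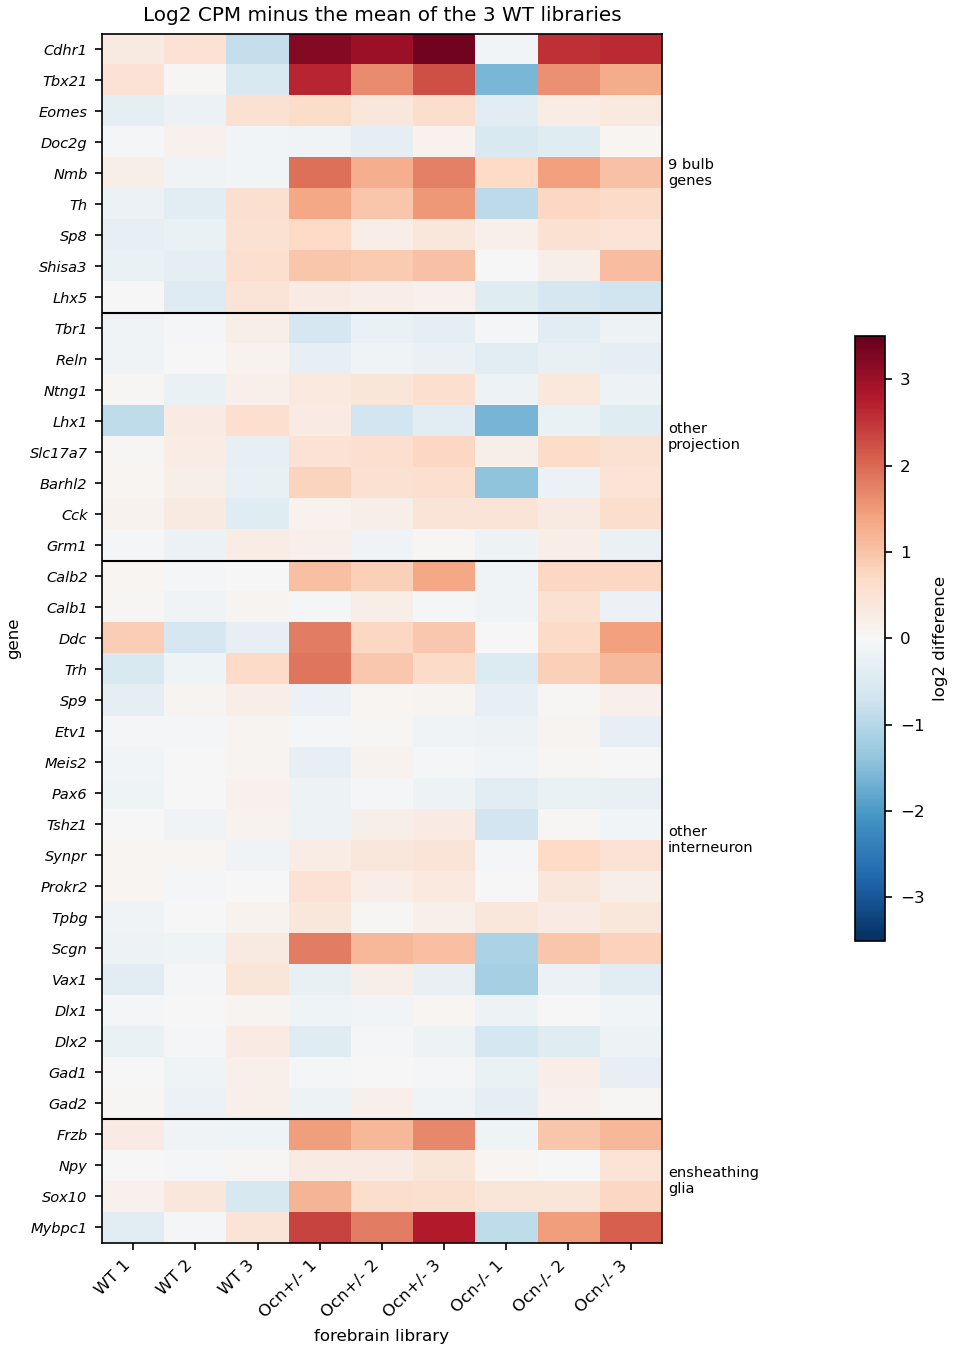
Log2 CPM of each gene (rows) minus its mean over the 3 WT libraries, in the 9 forebrain libraries (columns); red is higher and blue lower than WT, for the 9 bulb genes and the tested genes of the other bulb lists and of ensheathing glia. Cdhr1, Tbx21, Nmb, Calb2, Frzb and Mybpc1 are red in all Ocn+/- libraries and in Ocn-/- 2 and 3, while most broad interneuron genes such as Gad1 and Dlx1 stay near 0.

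Among the 10 genes whose log2 CPM was most like the mean of the 9 over the 9 libraries were Mybpc1 (r = 0.965), Spock2 (0.953), Barx2 (0.945), Igfbp5 (0.941), Scgn (0.935), Calb2 (0.922), Heyl (0.921), Pcp4l1 (0.919) and Bmp7 (0.917). Of these, 3 stood in the lists above: Mybpc1 among the ensheathing glia genes, and Calb2 and Scgn, the calcium-binding protein secretagogin, among the interneuron genes. By Spearman's rho, 7 of the 10 were among the 14 genes at or above the tenth value, which was tied. These are the extremes of 16067 correlations over 9 libraries and carry no test. Igfbp5, an insulin-like growth factor binding protein, was measured at 190 to 206 CPM in WT, 254 to 294 CPM in Ocn+/- and 148, 227 and 212 CPM in Ocn-/-, so that Ocn-/- 1 was again its lowest library.

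The rest of the dissection was read with lists for other regions. Summed over their lists, hippocampus genes ranged from 255 to 330 CPM in WT, 209 to 295 CPM in Ocn+/- and 247 to 382 CPM in Ocn-/-, and cortex genes from 1516 to 1806, 1395 to 1507 and 1214 to 1653 CPM. No gene of the hippocampus, cortex, thalamus or hypothalamus lists was called by edgeR in any comparison, and at most 2 genes of a list had an unadjusted p under 0.05. Over all 16076 genes, 3267 had such a p in Ocn+/-, 3489 in Ocn-/- and 515 between the mutants. Of 12 striatal genes, 2 rose in Ocn-/- and 0 fell, where 1.8% of all genes were called higher: Drd1, a dopamine receptor (0.95 ± 0.16, adjusted p = 0.00243), and Adora2a, an adenosine receptor (0.66 ± 0.14, adjusted p = 0.0126). Others of the list had negative values, among them the transcription factors Ebf1 at -0.58 and Foxp1 at -0.31 (adjusted p = 0.0853 and 0.0858), and the summed striatal level overlapped between genotypes, at 533 to 578 CPM in WT, 421 to 583 CPM in Ocn+/- and 513 to 573 CPM in Ocn-/-. Dcx, the doublecortin of migrating neuroblasts, fell in Ocn+/- and Ocn-/- (-0.39 ± 0.09 and -0.34 ± 0.09, adjusted p = 0.0151 and 0.0276), the only 1 of 11 migration genes called, where 2.68% and 3.05% of all genes were called lower. The summed level of that list was 5442 to 6343 CPM in WT, 4722 to 5085 CPM in Ocn+/- and 4810 to 5027 CPM in Ocn-/-, below WT in every mutant library. Of 6 choroid plexus genes 1 fell in Ocn-/-, against 3.05% of all genes: the water channel Aqp1 (-0.85 ± 0.19, adjusted p = 0.0136). Ttr, which encodes transthyretin, and Clic6, a chloride channel gene, were also below every WT library in all 3 Ocn-/- libraries (-0.52 and -0.69, adjusted p = 0.258 and 0.0590). The summed choroid plexus level was 582 to 749 CPM in WT, 583 to 871 CPM in Ocn+/- and 328 to 538.5 CPM in Ocn-/-, so that all Ocn-/- libraries lay below WT. The summed hypothalamus genes were at 6.15 CPM in Ocn-/- 1, the lowest of all libraries, and at 11.5 to 26.9 CPM in the others, and Avp and Otp were at 0 in Ocn-/- 1. Summed thalamus genes were at 120 to 150 CPM in WT, 142 to 148 CPM in Ocn+/- and 95.4 to 124 CPM in Ocn-/-. Those of Cajal-Retzius cells were at 668 to 813, 641 to 663 and 560 to 632 CPM. Ocn-/- 1 was the lowest library for both, and for the other bulb projection neuron and interneuron lists, at 821 and 1028 CPM. The part that the extent of each dissection had in the levels of the 9 genes was not tested, as the labels record nothing of it.

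**Figure D4:**
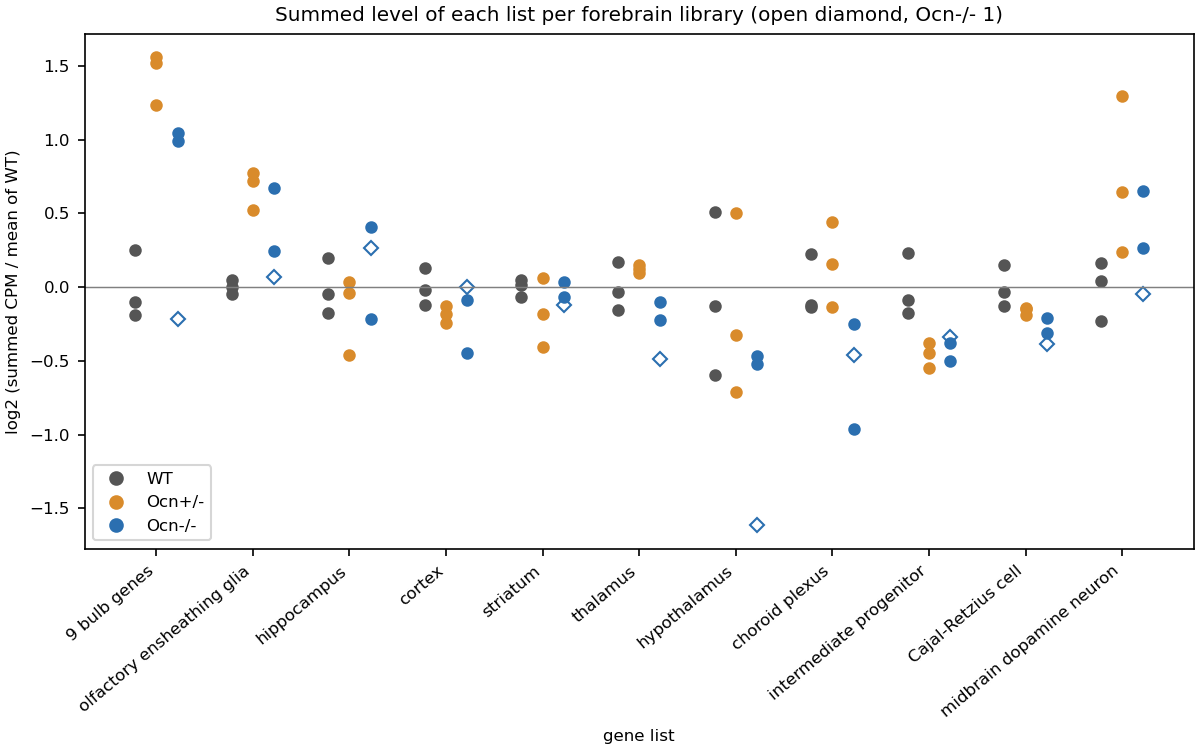
Summed CPM of each list of genes in each forebrain library, as log2 of its ratio to the mean of the 3 WT libraries (y axis), with genotypes side by side; the open diamond is Ocn-/- 1. The 9 bulb genes, the ensheathing glia genes and the midbrain dopamine neuron genes are above WT in every Ocn+/- library and in Ocn-/- 2 and 3. Ocn-/- 1 is at or close to the WT libraries in these lists. It is the lowest library for the hypothalamus list at 6.15 CPM, the thalamus list at 95.4 CPM and the Cajal-Retzius list at 560 CPM.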

How the data were processed

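Poly-A RNA of 9 forebrains and 8 testes of newborn mice was sequenced. The authors deposited 1 table of RSEM expected counts per gene. Per the submitters' processing notes, reads were trimmed with Trim Galore 0.6.6, aligned with STAR 2.7.8a and counted with RSEM 1.3.3 against GRCm39; strandedness was not given in the sources used here. RSEM divides reads shared between genes, so a value need not be whole. Here expected counts were rounded and identifiers matched to GENCODE; 610 of 55359 had no match. The 9 forebrains were fitted together with edgeR 4.0.16 (R 4.3.3; quasi-likelihood test, TMM scaling, filter on low counts by genotype), two-sided, with Benjamini-Hochberg adjustment over 16076 genes; calls are at an adjusted p under 0.05. CPM use TMM-scaled totals. The script was tested on simulated data. Alternatives were DESeq2 1.42.0, other scalings and filters, a replicate block and leaving out libraries.

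The members and gene lists were chosen with earlier results of these data known. All 9 members were named; lists of up to 10 genes could be named in full, longer ones by their called genes and up to 4 others of highest level, and the 10 genes most like the members by Pearson's r. Nothing in the labels says that libraries came from separate litters, so p-values measure the spread between these samples. Limits for counts of 0 use 3 counts and cover counting error only. Expected counts of the testes were used only for levels. Some genes of the lists are not reported here and were left out of their counts and sums.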

Additional observations from a re-analysis of the deposited data

Results flagged for a closer look

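The testes took no part in the comparisons, and 4 of the 9 bulb genes gave more there than the 3 counts that a count of 0 allows. The median expected count over the 8 testes was 33 for Eomes, 22.97 for Doc2g, 17 for Nmb and 24.5 for Shisa3. Cdhr1, Tbx21, Th, Sp8 and Lhx5 had medians of 0 to 2. Testes and forebrains were not compared by a test, and the source of these counts was not tested.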

How the results depend on the processing

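Calls against WT were 625 in Ocn+/- and 780 in Ocn-/-, with 1 between the mutants. For Ocn+/- they were 369 with library size alone (176 higher and 193 lower, against 194 and 431), 1265 with no filter, 225 without Ocn-/- 1 and WT 3 together (a choice made after seeing the data), and 183 to 830 with 1 library left out, lowest without WT 3. For Ocn-/- they were 643 with library size alone (415 higher and 228 lower, against 290 and 490), 1502 with no filter, 155 without both libraries and 189 to 919 with 1 left out, lowest without WT 3. Between the mutants they were 2 with library size alone, 5 with DESeq2, 34 with no filter, 0 with at least 10 counts in every forebrain, 0 with only the 2 genotypes and 1 to 2 with 1 left out. Other bulb genes called in Ocn+/- were 2, against 6 with no filter, 5 with only the 2 genotypes and 0 to 4 with 1 left out (1 without WT 2, Ocn+/- 2 or Ocn+/- 3). In Ocn-/- they were 1, against 2 with DESeq2, 6 with no filter, 2 with at least 10 counts, 3 with the replicate block, 2 without both libraries and 0 to 3 with 1 left out; the 1 call, lower in Ocn-/-, was replaced by 1 higher with library size alone or without WT 2 and by 3 higher without Ocn-/- 1. Between the mutants they were 0, and 1 with no filter. The median of the 9 genes in Ocn+/- was 0.51 with at least 10 counts, which kept 6 of them, and in Ocn-/- 1.03 without both libraries. Replicate numbers were only names: of 9 same-numbered pairs, 2 had deviations correlated above 0.1 (range -0.04 to 0.15). The replicate block gave 768 and 1140 calls against WT, and 1 between the mutants. The cause of these changes was not tested. Tbx21, Nmb, Shisa3 and Lhx5 had at most 50 counts in any forebrain, which limits their precision.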
